A study of Homo sapiens with 10 samples.

Results

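The 42 genes described here carry a cell through mitosis: they start it, build the kinetochore and the spindle, hold the spindle checkpoint, release the sister chromatids and complete cytokinesis. They were chosen by gene symbol, with no measured value in the rule, from a deposited table of 64940 genes. All 42 were found, and all 42 were among the 16687 genes with a mean of at least 1 TPM (a level of transcript abundance scaled for transcript length and library) that were tested. By step they are 9 genes of mitotic entry, 7 of the kinetochore, 5 of the checkpoint, 4 of the chromosomal passenger complex, 6 of the spindle, 2 of the mitotic chromosome, 6 of mitotic exit and 3 of cytokinesis.

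RNA sequencing of 4 libraries was used, 2 control and 2 oeDAZL, out of 10 libraries of all kinds in the series. Both groups were made from the hESC line H9, a human embryonic stem cell line, and the 4 libraries therefore share 1 genetic background. The oeDAZL group is described as hPGCLCs (human primordial germ cell-like cells) with the germ cell RNA-binding protein DAZL overexpressed. For overexpression experiments the methods describe BMP4 and BMP8a treatment with lentiviral transduction, and for the miRNA libraries a virus with DAZL and GFP, a GFP control virus and sorting, but they do not give the virus or the sorting for the RNA sequencing libraries. The controls carry the titles Normal, the genotype wt and a cell type of SD (spontaneously differentiated) cells, whereas the series' design text calls the same arm WT PGCLCs and the study speaks of both arms as hPGCLCs, so the sources differ on whether the controls went through the induction. No source says that the 2 libraries of a group came from separate cultures, so each test below measures only the spread between these libraries, which may be technical.

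In a dividing cell, cyclin B bound to CDK1 drives entry into mitosis, and the inhibitory kinase WEE1 and the activating phosphatases of the CDC25 family set when this happens. Kinetochores then attach chromosomes to microtubules, and unattached kinetochores keep the anaphase-promoting complex and its activator CDC20 inactive through MAD2 and BUBR1. Once every chromosome is attached, the complex marks securin and cyclin B for destruction, separase cuts cohesin, and the midzone and contractile ring divide the cell. Transcripts of most of these genes are low in G1 and highest in G2 and mitosis, so in a bulk library a lower share of mitotic cells and less RNA per cell cannot be told apart.

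DAZL, the overexpressed gene, was at 0 and 0.0333 TPM in the controls and at 102 and 101 TPM in oeDAZL, a level to which reads of the introduced copy may add. The labels were therefore borne out by the targeted gene in all 4 libraries. Of the 8 germ cell markers, TFAP2C lay between 44.3 and 53.9 TPM, ALPL between 44.01 and 52.7 TPM, PDPN between 32.9 and 58.5 TPM and KIT between 6.23 and 7.70 TPM. The other 4 were low in both arms, with SOX17 between 2.52 and 3.35 TPM, PRDM1 between 1.47 and 2.32 TPM, NANOS3 between 0.732 and 1.66 TPM and DND1 under 1 TPM in every library. The amnion and trophoblast markers summed to 656 and 558 TPM in the controls and to 501 and 524 TPM in oeDAZL, and 3 of these 6 genes were lower in oeDAZL at an unadjusted P of at most 0.05. At that P in limma, 15.2% of all tested genes were lower and 5.02% higher. The mesoderm and mesenchyme markers summed to 1574 and 1548 TPM in the controls and 1500 and 1496 TPM in oeDAZL, with 2 of 6 lower and 1 higher. The germ cell markers summed to 146 and 165 TPM in the controls and 160 and 162 TPM in oeDAZL. Of the 7 germ cell markers tested 1, PDPN, was higher at the same unadjusted P. Of 4 tested pluripotency markers 1 was higher at it, POU5F1, at 13.6 and 10.6 TPM against 22.4 and 20.4 TPM. Of 2 tested neural and 4 tested endoderm markers 1 each was lower at it, PAX6 and AFP. PAX6 was at 3.83 and 1.14 TPM in the controls against 0.0967 and 0.558 TPM in oeDAZL, and AFP at 36.3 and 13.1 TPM against 8.91 and 11.6 TPM. In both genes the 2 controls were far apart. The part of these cell type differences in the levels of the mitotic genes was not tested.

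The mitotic genes were abundant in all 4 libraries and differed little between the groups. Their summed level was 2807 and 2932 TPM in the controls and 2999 and 2937 TPM in oeDAZL, so that the second library of each group had nearly the same sum. Expressed as a share of all transcripts, this was 0.281% and 0.294% in the controls and 0.300% and 0.294% in oeDAZL. The mean level over the 4 libraries ran from 11.4 TPM for SPC25 to 188 TPM for TOP2A, with a median of 59.7 TPM against 15.6 TPM for all tested genes. TOP2A was followed by UBE2C at 162 TPM, CDC20 at 161 TPM and CCNB1 at 157 TPM, and 9 genes exceeded 100 TPM.

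**Figure D1:**
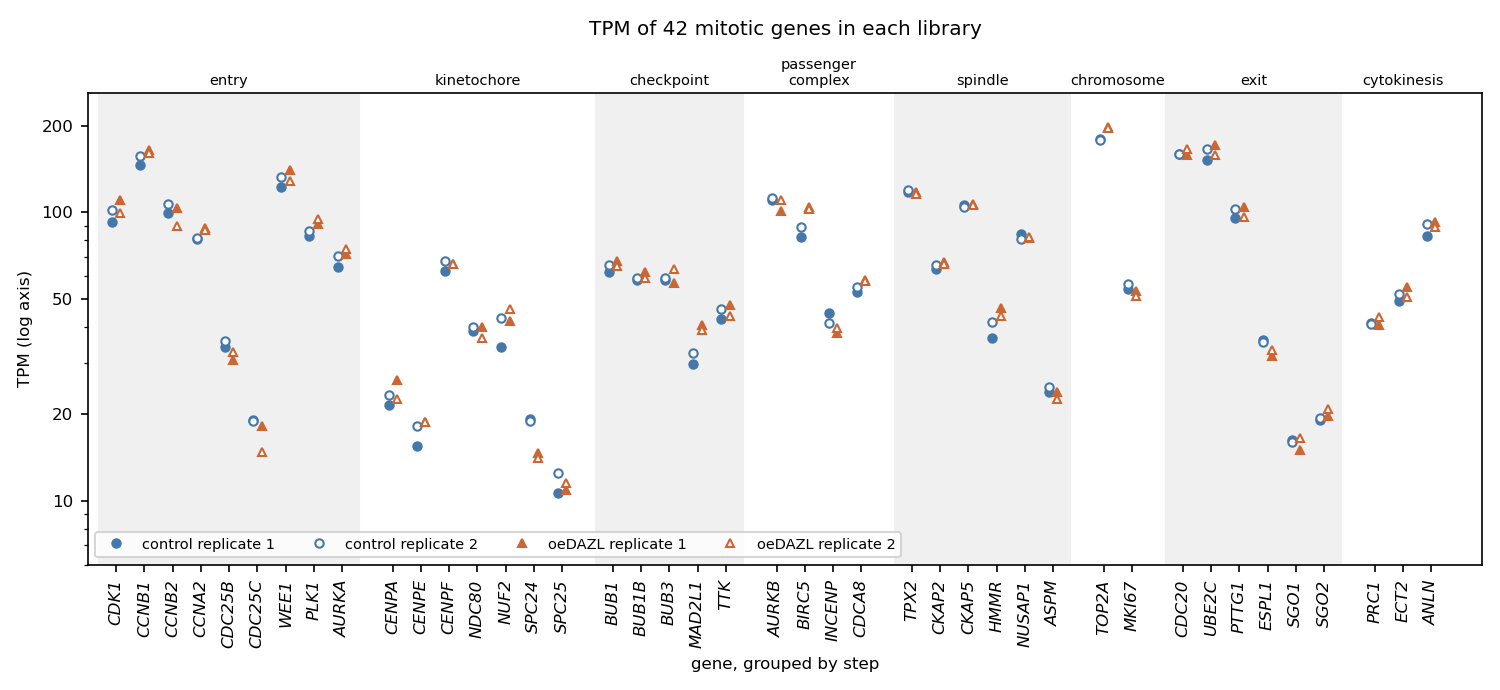
TPM on a log axis for each of the 42 mitotic genes in each of the 4 libraries, grouped by step; circles are control libraries and triangles oeDAZL libraries, filled for replicate 1 and open for replicate 2. For most genes the 4 points lie close together, and separation is plainest for MAD2L1 and BIRC5, which are higher in both oeDAZL libraries, and for SPC24, which is lower in both.

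None of the 42 genes passed either threshold for a firm call. At a fold change of at least 2 with an unadjusted P of at most 0.05, the thresholds used in the study's methods, 0 of 42 were called, against 0.689% of all tested genes. At a Benjamini-Hochberg adjusted p under 0.05 in limma, a linear model that shares its estimate of spread across genes, 0 of 42 were called, against 0.0599% of all tested genes, and the lowest adjusted p among the 42 was 0.116. At an unadjusted P of at most 0.05 in limma, 4 of 42 (9.52%) were called, against 20.2% of all tested genes. Of these, 3 (MAD2L1, BIRC5 and TOP2A) were higher in oeDAZL, against a background of 5.02%, and 1 (SPC24) was lower, against a background of 15.2%. With only 2 libraries a group, an exact permutation test of a single gene cannot give a two-sided p below 0.333, so every P here rests on the spread that limma shares across genes. Adjusted p values given below are those of limma with Benjamini-Hochberg adjustment over all tested genes.

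The differences were small as well as few. For 39 of the 42 genes (92.9%) the log2 fold change, computed on log2(TPM + 1), lay within 0.2 of 0, compared with 60.7% of all tested genes. All tested genes are not matched to the 42 for abundance, and the median standard error was 0.071 for the 42 and 0.119 for all tested genes. Among the 132 genes of the further mitotic lists described below, 85.6% lay within 0.2 of 0. The median log2 fold change of the 42 genes was 0.042, whereas that of all tested genes was -0.078, and 28 of the 42 had a value above 0, against 34.7% of all tested genes. In 14 of 42 genes the lower oeDAZL library exceeded the higher control library, against 16% of all tested genes, and in 7 the reverse order held, against 38.4%. The other 21 genes had groups that overlapped.

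The position of the 42 genes relative to 0 depended on how the libraries were scaled. With median-of-ratios scaling the median of all tested genes moved to -0.0026, that of the mitotic genes to 0.12, and 36 of 42 had a value above 0. With quantile normalization 33 did, and 21 did once base composition (GC content) and transcript length were corrected for, with a mitotic median of 0.0038. Relative to the median of all tested genes, the mitotic median was 0.12 higher on deposited TPM, 0.13 higher with median-of-ratios scaling, 0.076 higher with quantile normalization and 0.085 higher after the GC and length correction. The calls also shifted, with 9 higher and 1 lower among the 42 under median-of-ratios scaling, against 9.95% higher and 9.16% lower of all tested genes. Of all called genes 52.1% were then higher, compared with 24.9% on deposited TPM. This scaling added CCNB1, CCNA2, PLK1, AURKA, CDCA8 and HMMR to the higher genes.

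**Figure D2:**
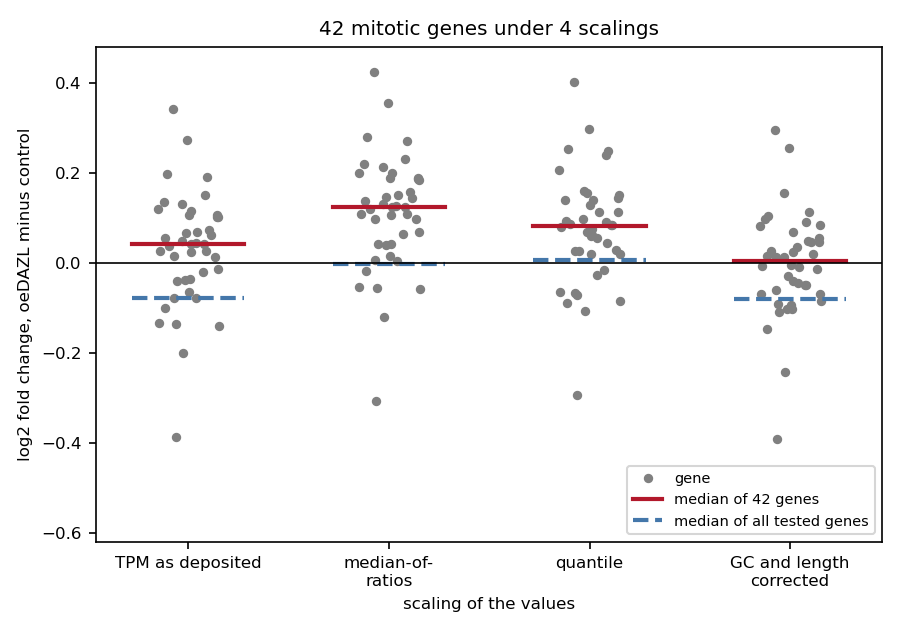
Log2 fold change (oeDAZL minus control) of the 42 mitotic genes under 4 scalings of the values; each point is a gene, the solid red line the median of the 42 genes and the dashed blue line the median of all tested genes. The median of the 42 genes sits above that of all tested genes in each column, while its place relative to 0 moves from 0.042 on deposited TPM to 0.12 with median-of-ratios scaling and 0.0038 after correction for GC content and length.

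The median absolute log2 difference was 0.061 between the controls, 0.068 between the oeDAZL libraries and 0.075 between the groups. The value between groups compares means of 2 libraries, which vary less than single libraries, so it is not a like measure to the replicate values. Control replicate 2 exceeded control replicate 1 in 32 of the 42 genes, with a median log2 difference of 0.060, and oeDAZL replicate 1 exceeded oeDAZL replicate 2 in 27 genes, with a median of -0.025 for replicate 2 minus replicate 1. Across all tested genes these shares were 41.6% and 47.9%. The absolute difference between groups was larger than both replicate differences in 13 of the 42 genes (31.0%), compared with 40.0% of all tested genes. A single control library weighed most: without control replicate 2, 11 genes had an unadjusted P of at most 0.05 in limma (9 higher and 2 lower), against 27.8% of all tested genes (8.04% higher and 19.7% lower), adding CCNB1, PLK1, AURKA, CENPE, NUF2 and HMMR on the higher side and INCENP on the lower. Leaving out oeDAZL replicate 1 gave 3 genes, against 9.49% of all tested genes, leaving out oeDAZL replicate 2 also gave 3, against 12.8%, and without control replicate 1 there were 4, against 14.98%.

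Promoter sequence was examined because genes of this set are textbook targets of the MuvB complex, which binds the cell cycle genes homology region (CHR) through LIN54, and of NF-Y, which binds the CCAAT box. RefSeq windows of 300 bases (GRCh38.p14, 250 bases before to 50 after each gene start) were matched for 35 of the 42 genes. The 7 others were TTK, WEE1, BUB3, AURKA, UBE2C, BIRC5 and TPX2. The CHR letters TTTGAA were found on either strand in 24 of 35 (68.6%), compared with 18.2% of all 27305 genes with a window and 13.6% of the tested genes with one. CCAAT was found in 29 of 35 (82.9%), compared with 39.7% of all genes and 42.98% of tested genes, and both motifs in 20 of 35 (57.1%), compared with 8.37% and 7.42%. A CHR match and a CCAAT match can share at most an end base, and a match is a description of the sequence, not evidence of a site in use.

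The following windows of 30 bases show the CHR match in genes of entry, checkpoint and chromosome, including 2 of the called genes, and the CCAAT boxes of SPC24 and CCNB1, in which no TTTGAA was found. Each is written 5′ to 3′ on the strand of the gene, with the motif, or its reverse complement, in capitals.
CDK1, chr10:60778453-60778482, plus strand: tagcgcggtgagTTTGAAactgctcgcact
CCNB2, chr15:59105105-59105134, plus strand: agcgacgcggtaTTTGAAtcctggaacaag
CDC25C, chr5:138331817-138331846, minus strand: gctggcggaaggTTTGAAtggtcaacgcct
PLK1, chr16:23678848-23678877, plus strand: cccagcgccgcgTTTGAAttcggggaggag
BUB1B, chr15:40161034-40161063, plus strand: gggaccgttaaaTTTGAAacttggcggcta
MAD2L1, chr4:120066807-120066836, minus strand: tgcgtcgttactTTTGAAacgcttggcggg
TOP2A, chr17:40418073-40418102, minus strand: cgagtggtgcctTTTGAAgcctctctagtc
CCNB1, chr5:69167083-69167112, plus strand: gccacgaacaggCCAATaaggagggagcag
SPC24, chr19:11155839-11155868, minus strand: gtatcaaaaaatCCAATggaaagcaacctc

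In 21 genes a CHR match lay within 50 bases of an annotated start. TOP2A was not among them, and its printed match starts at position -194 from the annotated start. The median log2 fold change was 0.026 over the 24 genes with a CHR match, of which 15 were above 0 and 9 below, and 0.042 over the 11 genes without one, of which 7 were above 0 and 4 below. Genes with and without the motif thus had nearly the same median difference between the groups.

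Among the 9 entry genes, 6 had a higher mean and 3 a lower mean in oeDAZL, none passed an unadjusted P of 0.05, and the median log2 fold change was 0.10. Their summed level was 743 and 792 TPM in the controls and 818 and 783 TPM in oeDAZL, so the groups overlapped. CDK1, the kinase that drives mitotic entry, was at 93.0 and 102 TPM in the controls and at 110 and 99.7 TPM in oeDAZL. CCNB1, which encodes cyclin B1, the main partner of CDK1, was at 146 and 157 TPM against 164 and 161 TPM. CCNA2, which encodes cyclin A2, was at 80.6 and 81.7 TPM against 88.4 and 86.7 TPM. Both cyclins were above the controls in both oeDAZL libraries, by a log2 fold change of 0.10 (SE 0.060, adjusted p = 0.387) for CCNB1 and 0.11 (SE 0.057, adjusted p = 0.347) for CCNA2. CCNB2, the second B-type cyclin, went the other way, at 99.8 and 107 TPM against 103 and 89.8 TPM, with overlapping groups and a log2 fold change of -0.10 (SE 0.084). As shares of the 3 cyclin transcripts, CCNB1 held 44.7% and 45.4% in the controls and 46.2% and 47.7% in oeDAZL, and CCNB2 held 30.6% and 30.9% against 29.004% and 26.6%.

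The kinases that promote CDK1 activation were slightly higher in both oeDAZL libraries without passing the test. PLK1, the polo-like kinase that promotes CDC25 activity, was at 83.0 and 86.5 TPM in the controls and at 91.1 and 94.7 TPM in oeDAZL, a log2 fold change of 0.13 (SE 0.060, adjusted p = 0.287). It was the entry gene nearest to the threshold, and it had a P of 0.0157 with median-of-ratios scaling and of 0.0389 after the GC and length correction. AURKA, the centrosomal Aurora kinase that activates PLK1, was at 64.5 and 70.7 TPM against 71.9 and 74.6 TPM, a log2 fold change of 0.12 (SE 0.071, adjusted p = 0.402). WEE1, which encodes the kinase that holds CDK1 inactive, overlapped between groups, at 123 and 133 TPM against 140 and 129 TPM. Both CDC25 phosphatase genes lay lower in both oeDAZL libraries without passing the test. Across all tested genes 38.4% were below both controls in both oeDAZL libraries and 16% above them. CDC25B was at 34.2 and 35.8 TPM in the controls and at 30.8 and 32.8 TPM in oeDAZL, with a log2 fold change of -0.14 (SE 0.077, adjusted p = 0.366). CDC25C was at 19.1 and 18.9 TPM against 18.1 and 14.8 TPM, with a log2 fold change of -0.20 (SE 0.12, adjusted p = 0.387), and most of this came from oeDAZL replicate 2. With median-of-ratios scaling the log2 fold changes were -0.055 for CDC25B and -0.12 for CDC25C. Summed over these 3 regulators, WEE1 accounted for 69.7% and 70.8% of the transcripts in the controls and for 74.1% and 73.1% in oeDAZL, a split chosen after the values were seen.

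**Figure D3:**
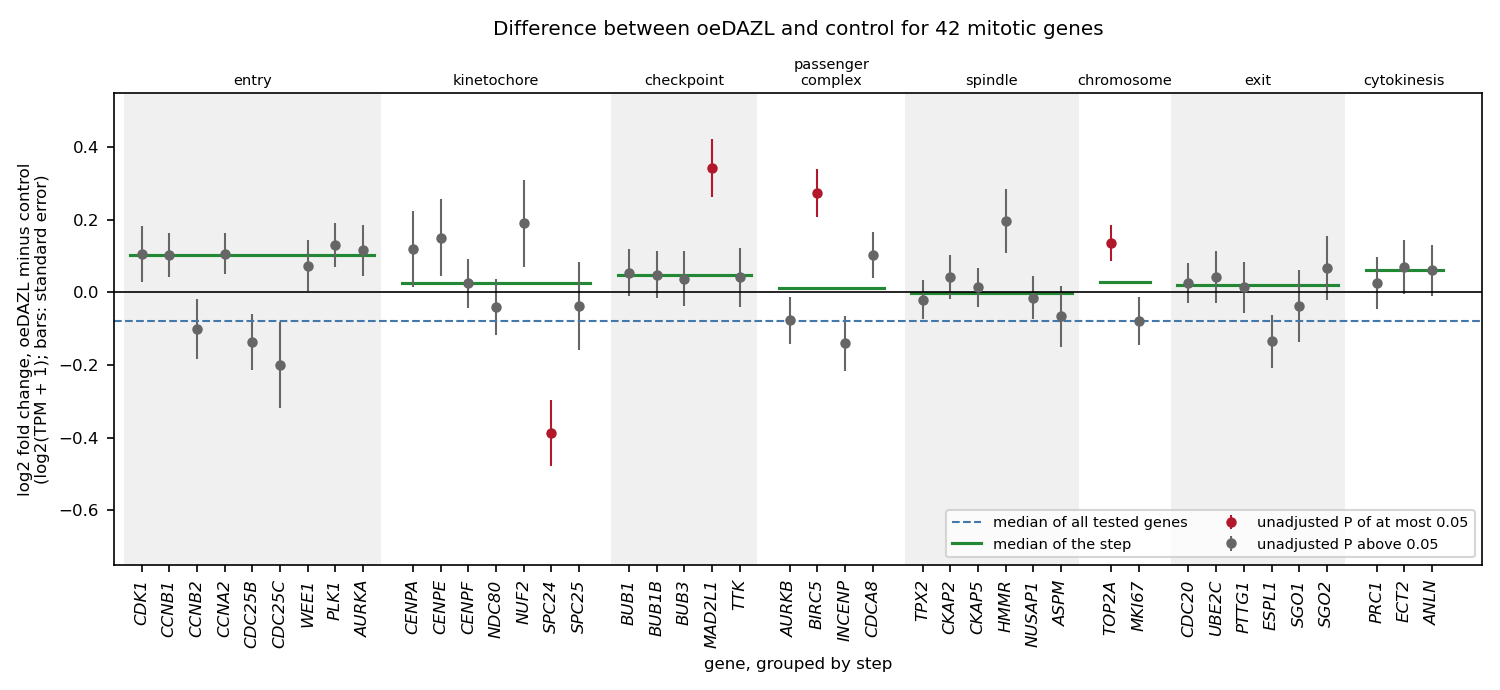
Log2 fold change (oeDAZL minus control, on log2(TPM + 1)) of each mitotic gene with its standard error, grouped by step, with genes at an unadjusted P of at most 0.05 in red. Green lines are the medians of the steps and the dashed blue line the median of all tested genes, -0.078, and SPC24 at -0.39 and MAD2L1 at 0.34 lie farthest from 0.

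Of the 7 kinetochore genes, 4 had a higher and 3 a lower mean in oeDAZL, 1 passed an unadjusted P of 0.05, and the median log2 fold change was 0.025, or -0.035 without control replicate 1 and 0.084 without control replicate 2. The gene that passed was SPC24 (chr19:11131520-11155807), a subunit of the NDC80 complex, which couples kinetochores to microtubules. SPC24 was at 19.2 and 19.0 TPM in the controls and at 14.7 and 14.05 TPM in oeDAZL. Its 2 groups were far apart relative to their replicates, and the mean was 24.8% below that of the controls (a ratio of 0.752). The log2 fold change was -0.39 (SE 0.091, Benjamini-Hochberg adjusted p = 0.117), and over the 14 alternative settings it stayed between -0.42 and -0.29 with an unadjusted P between 0.00450 and 0.0475.

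The other NDC80 subunits did not share this difference. NDC80 itself was at 38.8 and 40.1 TPM in the controls and at 40.2 and 36.6 TPM in oeDAZL. NUF2, which pairs with NDC80, was at 34.3 and 43.1 TPM against 41.9 and 46.2 TPM. SPC25, the direct partner of SPC24, was at 10.6 and 12.5 TPM against 10.9 and 11.6 TPM. In all 3 the groups overlapped, and the replicates of NUF2 differed by 0.32 on the log2 scale in the controls, more than its difference between groups of 0.19 (SE 0.12). The 4 subunits summed to 103 and 115 TPM in the controls and to 108 and 108 TPM in oeDAZL. Within this sum SPC24 made up 18.7% and 16.5% in the controls and 13.7% and 12.9% in oeDAZL, whereas SPC25 made up 10.3% and 10.9% against 10.1% and 10.7%. A share within a library does not depend on how the library was scaled, so the contrast of SPC24 with SPC25 is unchanged by any single scaling factor. SPC25 was the least abundant of the 42 genes, and this set was chosen after the values were seen.

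CENPA, the histone H3 variant that marks centromeres, was at 21.5 and 23.2 TPM in the controls and at 26.3 and 22.5 TPM in oeDAZL, with overlapping groups. CENPE, a kinesin that moves chromosomes to the spindle equator, was at 15.5 and 18.1 TPM against 18.7 and 18.7 TPM. It was higher in both oeDAZL libraries, but its log2 fold change of 0.15 (SE 0.11, adjusted p = 0.465) was smaller than the difference of 0.21 between the controls. CENPF, a large protein of the outer kinetochore, was at 62.5 and 67.9 TPM against 66.2 and 66.4 TPM, and the 2 oeDAZL libraries lay between the 2 controls.

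**Figure D4:**
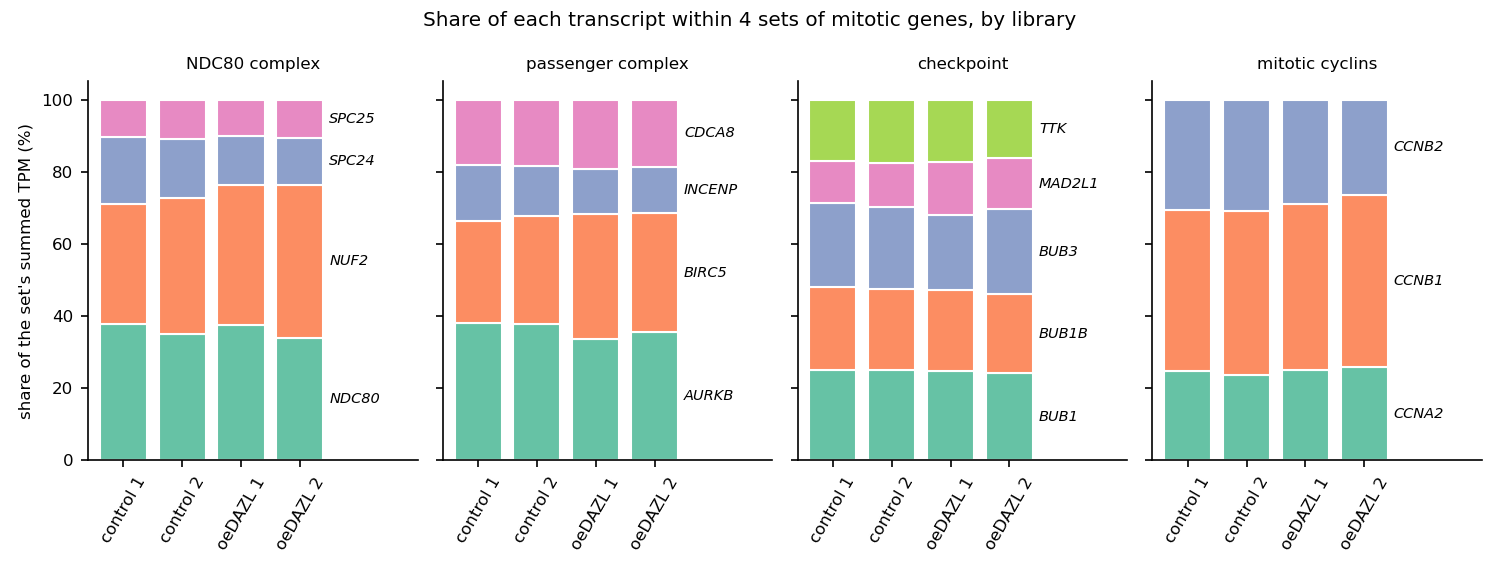
Stacked bars give the share (%) of each transcript in the summed TPM of 4 sets of mitotic genes, with a bar for each control and oeDAZL library. The SPC24 segment narrows from 18.7% and 16.5% in the controls to 13.7% and 12.9% in oeDAZL, while the BIRC5 segment widens from 28.2% and 29.98% to 34.6% and 33.1%.

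All 5 checkpoint genes had a higher mean in oeDAZL, and 1 of them passed an unadjusted P of 0.05. The direction was not stable for BUB3 and TTK, which reversed when a library was left out or, for TTK, after the GC and length correction. The median log2 fold change of the step was 0.049, and its summed level of 251 and 263 TPM in the controls lay below the 275 and 271 TPM of oeDAZL. MAD2L1 (chr4:120055623-120066858), which encodes MAD2, the protein that captures CDC20 at unattached kinetochores, was at 29.8 and 32.6 TPM in the controls and at 40.5 and 39.1 TPM in oeDAZL. Both oeDAZL libraries were clear of both controls, and the mean was 27.6% higher. This was the largest positive log2 fold change among the 42 genes, 0.34 (SE 0.079, Benjamini-Hochberg adjusted p = 0.116), and over the 14 alternatives it ranged from 0.28 to 0.42 with an unadjusted P between 0.00229 and 0.0407. Within the 5 checkpoint transcripts the share of MAD2L1 was 11.9% and 12.4% in the controls and 14.7% and 14.4% in oeDAZL.

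The remaining checkpoint genes had log2 fold changes of 0.038 to 0.055. BUB1, the kinase that recruits checkpoint proteins to kinetochores, was at 62.4 and 65.7 TPM in the controls and at 67.7 and 65.4 TPM in oeDAZL. BUB1B, which encodes BUBR1 of the mitotic checkpoint complex, was at 58.3 and 59.3 TPM against 62.4 and 59.5 TPM. BUB3, which brings BUB1 and BUBR1 to kinetochores, was at 58.2 and 59.2 TPM against 57.0 and 63.7 TPM. BUB1B was higher in both oeDAZL libraries by a margin smaller than its replicate difference, and BUB1 and BUB3 overlapped. TTK, the MPS1 kinase that initiates checkpoint signalling, was at 42.6 and 46.2 TPM against 47.8 and 43.7 TPM, with overlapping groups as well. BUB1B shares 240 exonic bases with PAK6, and the read-through entry BUB1B-PAK6 was at between 0.160 and 0.353 TPM in every library.

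The 4 genes of the chromosomal passenger complex, which corrects faulty attachments and later directs cytokinesis, split evenly, and in none of them did the groups overlap. Separation of the groups was common, with both oeDAZL libraries above both controls in 16% of all tested genes and below them in 38.4%. BIRC5 (chr17:78214186-78225636), which encodes survivin, was at 82.0 and 89.4 TPM in the controls and at 105 and 103 TPM in oeDAZL. CDCA8, which encodes borealin, was at 53.1 and 54.9 TPM against 58.2 and 57.9 TPM. AURKB, the kinase of the complex, was at 111 and 112 TPM against 101 and 110 TPM. INCENP, its scaffold, was at 44.8 and 41.3 TPM against 38.1 and 39.8 TPM. BIRC5 and CDCA8 were thus higher and AURKB and INCENP lower in both oeDAZL libraries, although the small difference of AURKB became 0.0061 with median-of-ratios scaling. Only BIRC5 passed an unadjusted P of 0.05, with a mean 21.0% higher and a log2 fold change of 0.27 (SE 0.066, Benjamini-Hochberg adjusted p = 0.120). Its log2 fold change lay between 0.21 and 0.36 and its unadjusted P between 0.00225 and 0.0431 over the 14 alternatives. Of the summed TPM of the complex, BIRC5 made up 28.2% and 29.98% in the controls and 34.6% and 33.1% in oeDAZL, AURKB 38.1% and 37.7% against 33.5% and 35.5%, and INCENP 15.4% and 13.8% against 12.6% and 12.8%. In oeDAZL replicate 1, BIRC5 was the most abundant of the 4 transcripts, whereas AURKB was in the other 3 libraries.

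Among the 6 spindle genes the median log2 fold change was -0.00015, with 3 values above and 3 below 0, and none passed an unadjusted P of 0.05. HMMR, a centrosome and spindle protein that works with TPX2, came nearest, at 36.7 and 41.7 TPM in the controls and at 46.5 and 43.6 TPM in oeDAZL. Its log2 fold change was 0.20 (SE 0.087, adjusted p = 0.273), and its unadjusted P in limma was 0.0280 with median-of-ratios scaling. After the GC and length correction its log2 fold change was 0.10, with an unadjusted P of 0.253 in limma. With single libraries left out the log2 fold change ranged from 0.11 to 0.29. TPX2, the activator of Aurora A on the spindle, was at 117 and 120 TPM against 118 and 116 TPM. CKAP5, a microtubule polymerase, was at 106 and 105 TPM against 107 and 107 TPM, with a log2 fold change of 0.014 (SE 0.054). CKAP2, another spindle microtubule protein, was at 63.8 and 65.6 TPM against 67.2 and 66.1 TPM. These 3 abundant transcripts were nearly level. NUSAP1, which bundles spindle microtubules, was at 84.3 and 81.0 TPM against 81.3 and 82.2 TPM, and ASPM, which works at spindle poles, was at 23.8 and 24.9 TPM against 23.8 and 22.6 TPM. Both overlapped between groups, and the sign of both changed with median-of-ratios scaling.

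TOP2A and MKI67, the markers of dividing chromatin, differed from each other in direction on deposited TPM. TOP2A (chr17:40388525-40417896), the topoisomerase that untangles sister chromatids, was at 180 and 178 TPM in the controls and at 198 and 196 TPM in oeDAZL. Its replicates were close together in both groups, and the mean was 9.97% higher in oeDAZL. The log2 fold change was 0.14 (SE 0.051, Benjamini-Hochberg adjusted p = 0.216). The unadjusted P was 0.144 without limma's trend, 0.0893 with the replicate number as a block, 0.208 without oeDAZL replicate 1, 0.164 without oeDAZL replicate 2 and 0.0952 after the GC and length correction, so this call was not kept in 5 of the 14 alternatives. MKI67, which encodes Ki-67, the coat protein of mitotic chromosomes, was at 54.4 and 56.3 TPM against 53.6 and 51.1 TPM. It was lower in both oeDAZL libraries, with a log2 fold change of -0.079 (SE 0.066, adjusted p = 0.535), close to the median of all tested genes of -0.078, and of 0.0031 with median-of-ratios scaling.

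Of the 6 genes of mitotic exit, 4 had a higher and 2 a lower mean in oeDAZL, none passed an unadjusted P of 0.05, and the median log2 fold change was 0.020. CDC20, the activator of the anaphase-promoting complex and the target of the checkpoint, was at 160 and 159 TPM in the controls and at 159 and 166 TPM in oeDAZL. UBE2C, which supplies ubiquitin to the complex, was at 152 and 167 TPM against 171 and 158 TPM. PTTG1, which encodes securin, the inhibitor of separase, was at 95.7 and 103 TPM against 104 and 96.1 TPM. The groups overlapped in these 3 genes, so that the transcripts of the activator, the ubiquitin donor and the substrate were not separable between the groups. ESPL1, which encodes separase itself, was at 36.0 and 35.5 TPM against 31.7 and 33.3 TPM. It was lower in both oeDAZL libraries, with a log2 fold change of -0.13 (SE 0.073, adjusted p = 0.352). SGO1, the shugoshin that protects centromeric cohesin in mitosis, was at 16.3 and 16.1 TPM against 14.9 and 16.6 TPM, and SGO2, its paralog, was at 19.1 and 19.4 TPM against 19.7 and 20.8 TPM. SGO2 was higher in both oeDAZL libraries by 0.067 (SE 0.087) on the log2 scale, a value that became -0.030 after the GC and length correction.

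The 3 cytokinesis genes overlapped between groups. PRC1, which bundles antiparallel microtubules at the midzone, was at 41.4 and 41.1 TPM in the controls and at 40.8 and 43.4 TPM in oeDAZL. ECT2, the exchange factor that activates RhoA at the division plane, was at 49.1 and 52.0 TPM against 55.3 and 50.9 TPM. ANLN, which encodes the ring scaffold anillin, was at 82.9 and 91.1 TPM against 92.7 and 88.8 TPM. All 3 had a log2 fold change between 0.026 and 0.069 on deposited TPM, and PRC1 was at -0.0073 and ECT2 at -0.0095 after the GC and length correction. PRC1 shares 3181 exonic bases with an unnamed protein-coding entry on the same strand, listed at between 22.7 and 25.3 TPM, so reads could be split between them and the level of PRC1 is uncertain.

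Several members have pseudogenes or close copies with which reads may be shared. CDC20P1 was listed at between 2.57 and 3.98 TPM, UBE2CP2 at between 0.335 and 2.12 TPM, and AURKAP1 and UBE2CP1 at under 1 TPM in every library. PTTG2 was at 0 in all 4 libraries and PTTG3P at 0.0993 TPM or less. These levels are small beside those of CDC20, UBE2C, AURKA and PTTG1. A second table entry for SPC25 was at 0 in all 4 libraries. CCNA2 overlaps EXOSC9 by 254 exonic bases, CDC25C overlaps FAM53C by 293 and NUSAP1 overlaps OIP5 by 352, in each case on the opposite strand. The strand setting of the counting is not given in the sources used here, so reads in these overlaps cannot be assigned.

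Base composition moved with the differences. Across the 42 genes the GC content of the canonical transcript ran from 34.4% in SGO2 to 59.1% in CDC25B, with a median of 42.6%, and Pearson's r between GC content and log2 fold change was -0.41 (Spearman's rho -0.39). Across 16609 tested genes r was -0.15 (rho -0.19). Genes share libraries and are not independent, so these are descriptions. Of the 21 genes above the median GC content 9 had a negative log2 fold change, compared with 5 of the other 21. From 51.1% GC upward, a cutoff at the value of UBE2C, the genes split evenly. The lower ones all lay at 53.3% (SPC24) or above, where only PLK1 and CDC20 were higher. CDC25B, INCENP, ESPL1, AURKB and SPC24 were on the lower side. On the higher side were PLK1 at 57.1% GC, CDC20 at 56.9%, BIRC5 and CDCA8 at 51.2% and UBE2C at 51.1%. MAD2L1, BIRC5 and SPC24 still had an unadjusted P of at most 0.05 after the GC and length correction.

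**Figure D5:**
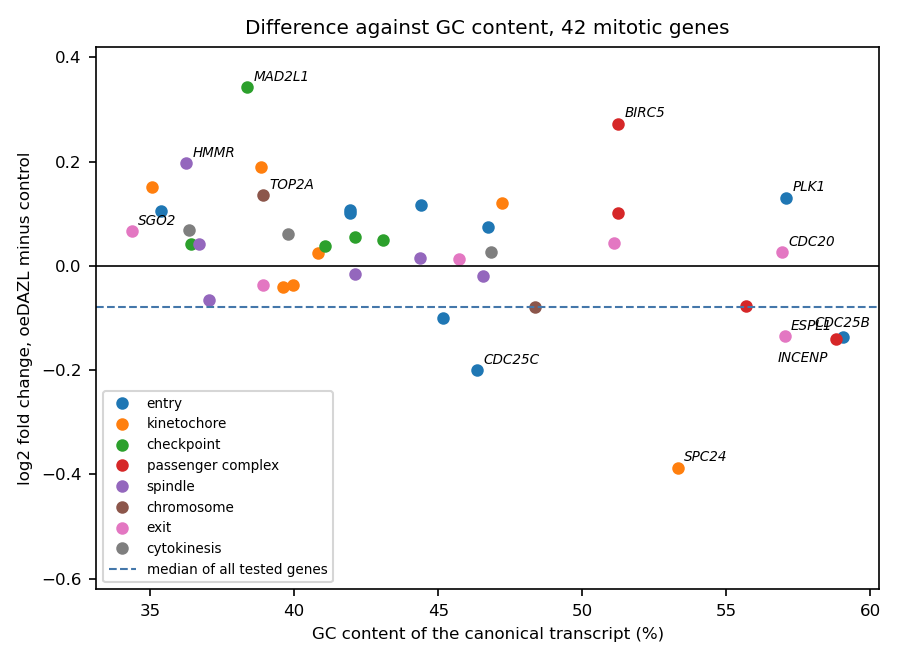
Log2 fold change (oeDAZL minus control) of the 42 mitotic genes against the GC content (%) of the canonical transcript, coloured by step, with the dashed line at the median of all tested genes, -0.078. Points fall from left to right (Pearson's r -0.41), with PLK1 and BIRC5 above 0 at high GC content and SPC24 lowest at -0.39.

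The let-7 family and miR-199a-5p were examined because the study concerns DAZL and the processing of their precursors. Members of the let-7 family share a seed, bases 2 to 8, which is written in capitals here.
hsa-let-7a-5p: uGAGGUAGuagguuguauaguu
hsa-let-7i-5p: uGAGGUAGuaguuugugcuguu
hsa-miR-199a-5p: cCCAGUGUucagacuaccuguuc
A match to the let-7 seed of 7 bases (CTACCTC) was found in the 3′UTR of the canonical GENCODE 44 transcript of 5 of the 42 genes (11.9%), compared with 11.3% of the 13110 tested genes with a 3′UTR. None of these matches was followed by A, the longer form of site found in 4.39% of the tested genes. The 5 matches are shown with their surroundings because they name the mitotic genes with such a seed match, the match being in capitals and the strand that of the gene.
AURKA, chr20:56369509-56369538, minus strand: gaacacgtgctCTACCTCcatttagggatt
AURKB, chr17:8204760-8204789, minus strand: ttatctgttttCTACCTCctcctttgttta
CDC25B, chr20:3804970-3804999, plus strand: cgccagtcctgCTACCTCccttgcctttcg
CDCA8, chr1:37709128-37709157, plus strand: gtcttgctcttCTACCTCcctagttagtgg
ESPL1, chr12:53293508-53293537, plus strand: tcataactgttCTACCTCcaaggttagatt
Of these 5 genes, AURKA and CDCA8 had positive and AURKB, CDC25B and ESPL1 negative log2 fold changes, with a range from -0.14 to 0.12 and a median of -0.077. None of the 5 passed an unadjusted P of 0.05, and AURKB turned positive with median-of-ratios scaling. The 37 genes without a match had a median of 0.042, and all tested genes had one of -0.078. The median of the 5 is the value of AURKB, and the difference between genes with and without a match was not tested. For miR-199a-5p a match (ACACTGG) was found in 1 gene, BUB3, of 42 (2.38%), compared with 13.9% of the tested genes, and BUB3 overlapped between groups.

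The wider mitotic machinery was described through 9 further lists with 132 genes, all of them tested. Of these, 21 had an unadjusted P of at most 0.05 in limma (15.9%, against 20.2% of all tested genes), 7 higher and 14 lower in oeDAZL, none had a fold change of 2 and none an adjusted p under 0.05, and the median log2 fold change was -0.017. In the counts by list, here and in the paragraphs that follow, higher and lower mean at that unadjusted P. Of all tested genes 5.02% were higher and 15.2% lower at it. Among 14 transcription regulators of G2/M genes, 2 were higher and 2 lower. TFDP1, a partner of E2F factors, was at 111 and 113 TPM in the controls and at 126 and 124 TPM in oeDAZL (log2 fold change 0.16, SE 0.054, adjusted p = 0.189), and E2F4, the repressor E2F of the DREAM complex, was at 84.4 and 79.5 TPM against 68.7 and 70.8 TPM (-0.23, SE 0.064, adjusted p = 0.149). Among 18 other mitotic kinases and phosphatase regulators, again 2 were higher and 2 lower. PKMYT1, the membrane-bound kinase that inhibits CDK1 beside WEE1, was at 91.3 and 89.6 TPM against 72.0 and 72.2 TPM (-0.32, SE 0.057, adjusted p = 0.0896). CKS2, a small CDK1-binding protein, was at 108 and 122 TPM against 149 and 153 TPM (0.40, SE 0.072, adjusted p = 0.0896). In both genes the groups were well separated relative to the replicates.

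Of 26 genes of the inner centromere and kinetochore, 2 were higher and 1 lower at an unadjusted P of at most 0.05 in limma. By log2 fold change alone, 10 were above 0 and 16 below. CENPH, a constitutive centromere protein, was at 51.8 and 52.7 TPM in the controls and at 69.9 and 73.3 TPM in oeDAZL, the largest difference in these lists (0.45, SE 0.064, Benjamini-Hochberg adjusted p = 0.0896). CENPO, of the same network, was lower, at 33.4 and 35.9 TPM against 30.3 and 28.5 TPM. Of 8 other checkpoint genes, KNTC1, which encodes ROD of the complex that brings MAD1 and MAD2 to kinetochores, was lower, at 63.1 and 53.5 TPM against 42.5 and 46.0 TPM. SPDL1, the spindly adaptor of dynein, was higher, at 55.9 and 56.9 TPM against 65.6 and 62.1 TPM. The KNTC1 difference was thus opposite in sign to that of MAD2L1.

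None of the 17 genes of the anaphase-promoting complex had an unadjusted P of at most 0.05 in limma. ANAPC2 came nearest on the lower side, at 58.2 and 44.6 TPM against 40.1 and 41.96 TPM (adjusted p = 0.250), and ANAPC15 on the higher side, at 34.9 and 43.8 TPM against 46.2 and 45.8 TPM (adjusted p = 0.313). Of 8 condensin genes 2 were lower, and the lowest P belonged to NCAPH2, at 63.7 and 62.2 TPM against 52.9 and 55.6 TPM. The highest-ranked condensin gene with a positive difference was SMC4, with adjusted p = 0.382. Of 10 cohesin genes only SMC1A passed, at 53.8 and 53.8 TPM against 45.9 and 49.3 TPM, and PDS5A led the higher side with adjusted p = 0.612. Of 16 other spindle and centrosome genes 2 were lower, led by TACC3, at 111 and 107 TPM against 94.7 and 100.1 TPM, while HAUS6 led the higher side with adjusted p = 0.343. Of 15 other cytokinesis genes 3 were lower, led by the citron kinase gene CIT, at 25.3 and 23.8 TPM against 19.0 and 18.1 TPM (-0.38, SE 0.087, adjusted p = 0.115), and CEP55, an abscission protein, was at 32.3 and 42.04 TPM against 52.3 and 42.9 TPM (adjusted p = 0.255).

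As a comparison, the median log2 fold change of 18 genes of DNA replication was 0.0070. At an unadjusted P of at most 0.05 in limma, 2 were higher and 3 lower (27.8% called, against 20.2% of all tested genes). TYMS, the thymidylate synthase, was at 190 and 213 TPM in the controls and at 253 and 253 TPM in oeDAZL (0.33, SE 0.068, adjusted p = 0.104), and PRIM1, a primase subunit, was at 36.0 and 36.8 TPM against 24.7 and 29.9 TPM (-0.41, SE 0.11, adjusted p = 0.131). The replication genes and the 42 mitotic genes each held differences in both directions, as did all tested genes, and no test of one list against the other was made.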

How the data were processed

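The authors deposited TPM values per gene, 1 column per library, and all columns with values per sample were mapped. Per the labels and the methods of the study, reads were trimmed with Trim Galore (its version differs between these sources), aligned to hg38 with HISAT2 2.1.0 (unique alignments kept) and quantified with StringTie 2.1.4. The annotation release and strand setting are not given in the sources used here. TPM keeps no read depth, so depth is unknown, precision comes from the 2 libraries per group, and a 0 means only that a gene is listed at 0.

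From 65003 entries, 45 chromosome Y copies of pseudoautosomal genes and 18 repeated entries were dropped. Log2(TPM + 1) of genes averaging 1 TPM or more entered limma 3.58.1 (R 4.3.3, eBayes with trend, no covariate), with Benjamini-Hochberg adjustment over all tested genes. The script was tested on simulated data. The members and the lists were chosen with earlier results of these data known. Named genes were every member, DAZL, entries named after a member and, in each further list, genes past both thresholds of the study and the gene with the lowest unadjusted P in each direction. Genes of overlapping entries, cell type markers given by level, the sets used for shares within a library, and the leave-one-out additions were named after values were seen. Alternatives were a pseudocount of 0.1, no filter, a mean TPM of at least 5, median-of-ratios scaling, quantile normalization, rescaling without mitochondrial genes, no trend, a replicate block, each library left out, and a correction for GC content and length (values for 99.5% of tested genes). A crossed pairing of the replicates, added after the data were seen, brings these to 14, and the ranges given over the 14 alternatives include it. Transcript locations, GC content and 3′UTRs are from GENCODE 44 on the same build, promoters and mature miRNAs from RefSeq. The miRNA libraries were not used here. Not every overlap of a mitotic gene with another gene is reported here.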

Additional observations from a re-analysis of the deposited data

How the results depend on the processing

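MAD2L1, BIRC5 and SPC24 kept their direction and an unadjusted P of at most 0.05 in limma in all 14 alternatives, and DAZL kept its call in all of them. No alternative called a mitotic gene at a fold change of 2, and 22 of the 42 genes kept their direction throughout. Median-of-ratios scaling gave 10 mitotic genes at an unadjusted P of at most 0.05, 9 of them higher, against 19.1% of all tested genes (9.95% higher), and medians of 0.12 for all 42 genes, 0.19 for entry, 0.11 for the kinetochore, 0.13 for the checkpoint, 0.095 for the passenger complex, 0.083 for the spindle, 0.11 for the chromosome, 0.10 for exit and 0.14 for cytokinesis, and it turned NDC80 (0.042), SPC25 (0.039), AURKB (0.0061), TPX2 (0.063), NUSAP1 (0.068), ASPM (0.015), MKI67 (0.0031) and SGO1 (0.043) positive. Quantile normalization gave 7 genes, 6 of them higher, against 17.5% of all tested genes (8.40% higher), and medians of 0.082 for all 42 genes, 0.093 for the checkpoint, 0.042 for the passenger complex, 0.023 for the spindle, 0.056 for the chromosome and 0.050 for exit, and turned NDC80 (0.026), SPC25 (0.068), NUSAP1 (0.020), ASPM (0.020) and SGO1 (0.059) positive. Rescaling without mitochondrial genes moved the spindle median to 0.017 and NUSAP1 to 0.0023. The correction for GC content and length gave medians of -0.045 for the spindle, -0.022 for exit and -0.0073 for cytokinesis and turned CDK1 (-0.0050), TTK (-0.050), CKAP2 (-0.040), PTTG1 (-0.014), SGO2 (-0.030), PRC1 (-0.0073) and ECT2 (-0.0095) negative. The cause of these shifts was not tested.

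When single libraries were left out, the genes at an unadjusted P of at most 0.05 ranged from 3 to 11 (2 to 9 higher, 1 to 2 lower), with the highest counts without control replicate 2, while the share of all tested genes ranged from 9.49% to 27.8%, also highest without that library. The medians ranged from 0.021 to 0.073 for all 42 genes, -0.035 to 0.084 for the kinetochore, -0.015 to 0.040 for the passenger complex, 0.025 to 0.091 for the checkpoint, 0.035 to 0.13 for entry, -0.024 to 0.043 for exit and -0.00079 to 0.018 for the spindle. The genes that changed sign ranged from -0.0056 to 0.13 (ANLN), -0.042 to 0.12 (BUB3), -0.0041 to 0.056 (CDC20), -0.035 to 0.084 (CENPF), -0.10 to 0.025 (NDC80), -0.043 to 0.014 (NUSAP1), -0.018 to 0.070 (PRC1), -0.044 to 0.072 (PTTG1), -0.11 to 0.034 (SGO1), -0.14 to 0.069 (SPC25), -0.021 to 0.11 (TTK) and -0.020 to 0.11 (UBE2C). The group with 1 library left is assumed to vary like the other.

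With the replicate number as a block, 3 mitotic genes had an unadjusted P of at most 0.05 instead of 4, TOP2A being lost, against 16.6% of all tested genes. The labels share only a number, and deviations of same-numbered libraries correlated at -0.10 over 16687 genes, so a call lost under this pairing is not a sign of a weaker effect. A crossed pairing, added after the data were seen, gave 5 genes at an unadjusted P of at most 0.05, against 24.1% of all tested genes, and 2 at an adjusted p under 0.05, against 6.53%. Depth is unknown from TPM, so no limit of detection can be stated.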
